A study of Homo sapiens with 12 samples.

Results

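Arf GTPases are small membrane switches that recruit vesicle coats and reshape actin at the cell edge. They are switched off by Arf GTPase-activating proteins (Arf GAPs), which share a zinc finger catalytic domain that stimulates hydrolysis of the bound GTP. ARFGAP1, ARFGAP2 and ARFGAP3 act with the COPI coat at the Golgi, ASAP1 and ASAP2 at focal adhesions and other actin structures, and ACAP2, GIT1 and GIT2 largely on ARF6 at the cell surface and in endocytic recycling. ARFIP1 (arfaptin-1) is no GAP but a membrane-bending protein that binds active Arf and Arf-like GTPases. These 9 genes are described here across GS689.Li cells, written GS689, and PC3E cells. They were chosen by name, with their exon events matched by structure to the gene annotation and with splicing results of these data already known, out of 12978 genes named in the tables.

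GS689 and PC3E are human sublines of the prostate cancer line PC3, GS689 of mesenchymal and PC3E of epithelial character. Both are labelled wild type and were kept in the same serum-containing DMEM/F12 medium with G418, with no treatment. Each line was measured in 3 RNA-seq and 3 RASL-seq libraries, RASL-seq being a targeted assay that ligates probe pairs across splice junctions and counts the products. Nothing in the labels says that the libraries of a line came from separate cultures, so the spread given below may be technical, and each group is a single line.

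An event is an internal exon with the 2 junctions that include it and the junction that skips it. RASL-seq held 5 events of these genes among 2023, namely 3 of ARFGAP1, 1 of ARFIP1 and 1 of ASAP2, so that 6 of the 9 genes had none. RNA-seq held 215 of its 114816 events, with 57 in ARFGAP2, 46 in ASAP1, 24 in GIT2, 18 each in ACAP2, ARFGAP1 and ASAP2, 17 in GIT1, 9 in ARFIP1 and 8 in ARFGAP3. The RASL-seq libraries held 615758 to 954120 counts in GS689 and 754338 to 911476 in PC3E. The RNA-seq columns form 2 numbered sets of 3 libraries to which the header gives no line. They are called set 2 and set 1 here, they enter no comparison between the lines, and their values are given library by library. In RASL-seq, pairs of libraries of a line differed by up to 2.27 times the counting variance in GS689 and up to 6.30 times in PC3E (chi-square per degree of freedom), where replicate 2 stood further from the other two. In RNA-seq the pairs differed by up to 2.51 times in set 2 and up to 6.24 times in set 1, where library 2 stood apart. Of the marker genes, RASL-seq gave vimentin (VIM) at 4255 CPM (counts per 1000000 of the scaled library total) in GS689 and 185 in PC3E, and the epithelial gene LSR at 1.08 CPM in GS689 and 93.0 in PC3E. CDH1, EPCAM, ESRP1, ESRP2, GRHL2, ZEB2, FN1 and CDH2 were measured in RNA-seq alone, where the sets name no line. The other markers of these classes measured in RASL-seq were ZEB1 (17.0 CPM in GS689, 0.393 in PC3E), OCLN (114 in GS689, 349 in PC3E), SPINT2 (246 in GS689, 492 in PC3E) and LLGL2 (15.9 in GS689, 53.1 in PC3E). The part of this epithelial and mesenchymal contrast in the results below was not tested. KLK3, a marker of the prostate epithelium, had no event in the tables used here.

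The exons on which the results turn are shown first. Exon bases are in capitals and the 15 bases of the neighbouring exons on each side are in lower case, 5′ to 3′ on the coding strand, from the transcripts of GENCODE release 29. Positions are those of the deposited tables on hg19. The ARFGAP1 exon of 110 bases (chr20:61907443-61907552, plus strand) holds the zinc finger of the GAP domain: its reading frame has 4 cysteine codons, with 2, 16 and 2 codons between them, the spacing of that finger. Its length is not a multiple of 3, so its loss shifts the frame.
ARFGAP1 110-base exon: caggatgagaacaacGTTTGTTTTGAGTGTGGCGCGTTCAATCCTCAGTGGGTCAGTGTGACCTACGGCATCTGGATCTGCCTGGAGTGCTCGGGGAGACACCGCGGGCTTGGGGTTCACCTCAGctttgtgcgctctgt
The ARFIP1 exon of 96 bases (chr4:153791905-153792000, plus strand) and the ASAP2 exon of 135 bases (chr2:9531191-9531325, plus strand) are both coding, keep the frame when skipped and hold no in-frame stop codon.
ARFIP1 96-base exon: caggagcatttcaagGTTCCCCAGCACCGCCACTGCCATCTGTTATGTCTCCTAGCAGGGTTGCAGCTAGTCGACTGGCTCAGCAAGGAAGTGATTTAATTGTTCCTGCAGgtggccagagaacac
ASAP2 135-base exon: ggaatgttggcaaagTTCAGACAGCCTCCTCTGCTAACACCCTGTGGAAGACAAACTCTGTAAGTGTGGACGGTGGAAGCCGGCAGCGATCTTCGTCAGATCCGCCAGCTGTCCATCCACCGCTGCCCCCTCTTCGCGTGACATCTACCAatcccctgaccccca
In ARFGAP2, on the minus strand of chromosome 11, 3 exons had events of intermediate inclusion. They have 42 bases (chr11:47194261-47194302), 124 bases (chr11:47195310-47195433) and 132 bases (chr11:47196733-47196864), and the exon of 124 bases is the one whose length is not a multiple of 3.
ARFGAP2 42-base exon: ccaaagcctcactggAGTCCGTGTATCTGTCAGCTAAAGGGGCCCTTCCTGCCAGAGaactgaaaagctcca
ARFGAP2 124-base exon: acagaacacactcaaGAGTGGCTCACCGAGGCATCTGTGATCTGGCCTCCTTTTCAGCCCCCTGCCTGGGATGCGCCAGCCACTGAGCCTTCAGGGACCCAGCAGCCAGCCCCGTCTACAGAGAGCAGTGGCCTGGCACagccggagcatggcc
ARFGAP2 132-base exon: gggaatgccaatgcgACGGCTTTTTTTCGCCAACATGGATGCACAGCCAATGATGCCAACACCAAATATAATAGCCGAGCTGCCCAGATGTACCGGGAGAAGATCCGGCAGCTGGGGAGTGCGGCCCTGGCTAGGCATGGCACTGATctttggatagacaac
GIT1 had the shortest exon of intermediate use, 27 bases (chr17:27905980-27906006, minus strand), which also keeps the frame.
GIT1 27-base exon: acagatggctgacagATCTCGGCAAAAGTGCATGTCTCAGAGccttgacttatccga

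In RASL-seq, the ARFGAP1 zinc finger exon was included in most transcripts of both lines and more often in GS689. Its inclusion share, the inclusion count over the sum of both counts, was 90.8%, 91.9% and 90.5% in the GS689 libraries, against 85.2%, 85.9% and 85.2% in the PC3E libraries. The lines did not overlap, and the means were 91.1 ± 0.719% in GS689 and 85.4 ± 0.401% in PC3E (SD, n = 3 each), a difference of 5.64 percentage points. Summed over libraries, 1694 of 1859 counts in GS689 (91.1%, exact 95% interval 89.7 to 92.4%) and 1260 of 1475 in PC3E (85.4%, 83.5 to 87.2%) were inclusion. These intervals cover counting error alone, which makes up the whole error only if each count is a separate molecule. The quasi-binomial test called this event (adjusted p under 0.05 and at least 5 percentage points), 1 of the 2 member events it could test, where 5.69% of all 1124 tested events were called. The median absolute difference over all tested events was 2.14 percentage points. Since these genes were chosen with this contrast known, the call describes the exon and is no support for it. The difference lay between 5.23 and 5.91 percentage points with any 1 library left out, but the call was lost without GS689 replicate 1, GS689 replicate 2 or PC3E replicate 3. It was also lost with limma on the log2 ratio, at pseudocounts of 0.5 and 5, and without the count filter.

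The ARFIP1 exon was almost wholly skipped in RASL-seq in both lines, and was included less in GS689. The GS689 libraries gave 5 inclusion and 907 skipping counts, 0 and 1031, and 1 and 527, against 7 and 449, 13 and 328, and 10 and 535 in the PC3E libraries. As shares these were 0.548%, 0% and 0.189% in GS689 and 1.54%, 3.81% and 1.83% in PC3E. The lines did not overlap, with means of 0.246 ± 0.278% in GS689 and 2.39 ± 1.24% in PC3E (SD, n = 3 each), a difference of -2.15 percentage points that became -1.44 without PC3E replicate 2. The event was tested and lay under the minimum difference of 5 percentage points. Both tested member events were thus without overlap between the lines, as were 23.6% of all tested events.

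The ASAP2 exon was also skipped nearly always in RASL-seq, and the lines overlapped. Inclusion was 0.342%, 0.943% and 0.649% in the GS689 libraries, against 0%, 1.43% and 0.334% in the PC3E libraries. The means were 0.645 ± 0.300% in GS689 and 0.588 ± 0.747% in PC3E (SD, n = 3 each), from 154 to 318 counts per library, and too few inclusion counts were present for the test. The other ARFGAP1 events concern coding exons further downstream in the gene. The exon of 30 bases (chr20:61915203-61915232) had 4 inclusion counts of 5001 in GS689 (0.0800%, exact 95% interval 0.0218 to 0.205%) and 0 of 4028 in PC3E (exact 95% interval 0 to 0.0915%). The GS689 libraries held 1, 1 and 2 of these counts and each PC3E library held 0, so the lines did not overlap, on very few counts. The exon of 239 bases (chr20:61917332-61917570) had 0 of 1126 counts in GS689 (exact 95% interval 0 to 0.327%) and 0 of 872 in PC3E (0 to 0.422%). Neither exon had enough counts of the rarer form for the test.

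**Figure D1:**
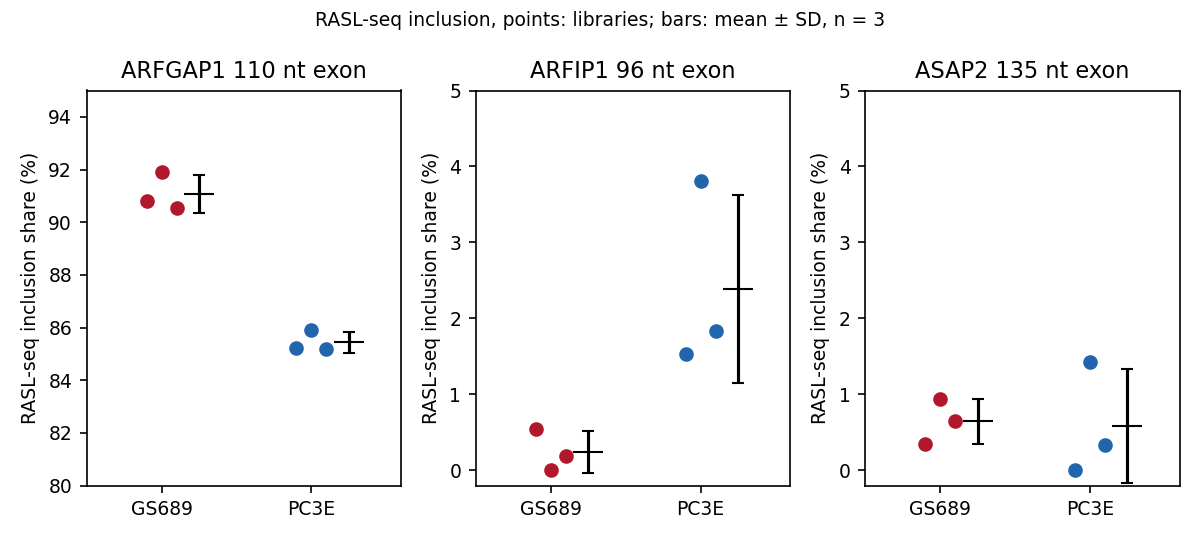
RASL-seq inclusion share (%, vertical axes, with their own ranges and the ARFGAP1 axis starting at 80) of the ARFGAP1 110-base, ARFIP1 96-base and ASAP2 135-base exons in GS689 and PC3E. Points are libraries and bars are mean ± SD (n = 3); the GS689 points lie above the PC3E points for ARFGAP1 (90.5 to 91.9% against 85.2 to 85.9%), below them for ARFIP1, and among them for ASAP2.

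The summed RASL-seq counts of a gene, over both splice forms of all its events, were used as its total. In bulk RNA such a total cannot tell fewer expressing cells from less RNA per cell. ARFIP1 was 1.91-fold higher in GS689, with 935, 1246 and 855 CPM in the GS689 libraries against 538, 442 and 611 CPM in the PC3E libraries. The means were 1012 ± 207 CPM in GS689 and 530 ± 84.5 CPM in PC3E (SD, n = 3 each), with no overlap, and the log2 change was 0.93 (SE 0.175). ARFIP1 thus had the larger total and the smaller share of the 96-base exon in the same line.

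ARFGAP1 was 1.31-fold higher in GS689, with 3153, 3363 and 3447 CPM in the GS689 libraries against 2561, 2521 and 2534 CPM in the PC3E libraries. The means were 3321 ± 152 CPM in GS689 and 2539 ± 20.1 CPM in PC3E (SD, n = 3 each), and the log2 change was 0.39 (SE 0.107). ASAP2 totals overlapped, with 299, 384 and 249 CPM in GS689 against 261, 272 and 335 CPM in PC3E, means of 311 ± 68.3 CPM in GS689 and 289 ± 39.95 CPM in PC3E (SD, n = 3 each) and a log2 change of 0.10 (SE 0.184) that became -0.05 without GS689 replicate 2. By limma-voom with Benjamini-Hochberg adjustment over 1317 genes, ARFIP1 and ARFGAP1 were called and ASAP2 was not, where 29.8% of all genes tested were called, 16.4% as higher in GS689, with a median log2 change of -0.01. The ARFIP1 call held under all alternatives but a 2-fold minimum. The ARFGAP1 call was lost when skipping counts alone were summed (log2 change 0.30), and without PC3E replicate 1 (0.38), PC3E replicate 3 (0.36) or GS689 replicate 3 (0.37).

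**Figure D2:**
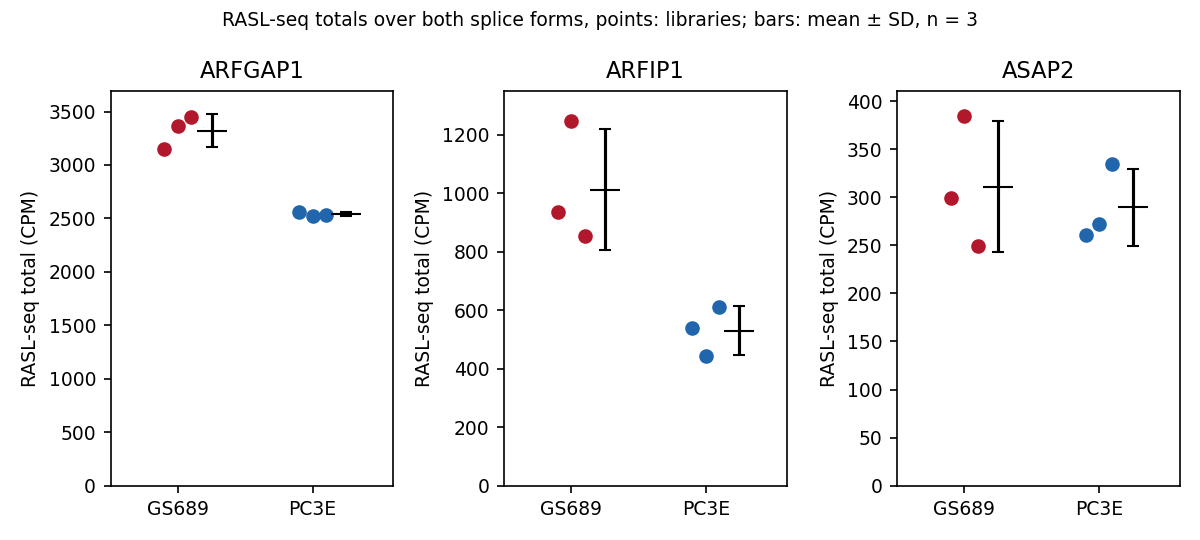
RASL-seq totals (CPM, vertical axes from 0) of ARFGAP1, ARFIP1 and ASAP2 in GS689 and PC3E, summed over both splice forms. Points are libraries and bars are mean ± SD (n = 3); all GS689 points lie above the PC3E points for ARFGAP1 and ARFIP1, while those of ASAP2 overlap.

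RNA-seq covered all 9 genes. Of the 215 events, 189 reached the minimum of a mean of 20 counts per library with at least 1 in each, and 26 did not. Over the 6 libraries the median inclusion level, corrected for the effective lengths in the table, was above 95% in 165 events, below 5% in 8 and between these limits in 16. These 16 events, called intermediate below, concern 13 exons of 8 genes, and ACAP2 had none. Of all 97885 RNA-seq events over the minimum, 14624 were intermediate (14.9%). The exons of 13 of the 16 events have lengths that are multiples of 3, against 43.1% of all intermediate events. The libraries of set 2 and set 1 did not overlap in 7 of the 16, with 5 events in ARFGAP2 and 1 each in ARFIP1 and ASAP1, where 22.8% of all intermediate events were without overlap. Some of the 16 share an exon or junction reads, so they are not separate observations.

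ARFGAP2, a coat-associated GAP of the Golgi, held the most intermediate events. Its 42-base exon, joined from the neighbouring exon that starts at 47194977, was included at 31.9%, 45.1% and 26.6% in set 2, against 74.5%, 77.2% and 66.9% in set 1, from 295 to 711 counts per library. Every library of set 2 lay below every library of set 1. Events that pair the same exon with more distant exons gave the same order. For the junction that skips from the exon starting at 47196566, inclusion was 86.5%, 82.8% and 72.1% in set 2, against 98.8%, 99.0% and 95.9% in set 1. For the junction from the exon starting at 47197402 it was 68.1%, 79.3% and 59.6% in set 2, against 86.5%, 96.03% and 89.4% in set 1. These last events have the same inclusion counts, so they repeat each other in part. They also share the junction to the exon ending at 47193884 with the first event, and no annotated transcript has both of their junctions. Their order is thus no separate observation, and joining from the distant exons was not shown.

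The remaining ARFGAP2 events rest on the same skipping junctions. The 124-base exon was included at 68.0%, 59.0% and 57.9% in set 2, against 94.9%, 91.7% and 78.3% in set 1, from only 21 to 41 counts per library. The 132-base exon was included at 89.9%, 92.5% and 89.0% in set 2, against 92.9%, 98.1% and 94.0% in set 1. Both events pair their exon with the exon ending at 47193884, but the counts do not show that joining. In set 2 library 1 the 132-base exon had 214 inclusion counts there and also 214 when paired with the exon ending at 47193351. No annotated transcript has both junctions of the 124-base event. Paired with a closer exon, both events had higher levels. Beside the exon ending at 47195033, the 124-base exon was included at 97.7 to 99.6%, on 262 to 522 counts per library. Beside the exon ending at 47196649, the 132-base exon was included at 99.8 to 100%, on 465 to 1071 counts per library. The sets overlapped in both of these events. Versions of 82 and 157 bases share the edge at 47195310 with the 124-base exon, and so its junction to the exon ending at 47195033. The level beside that exon therefore does not give the use of the 124-base version. Paired with the exon ending at 47193884, the 82-base version had 313 inclusion counts in set 2 library 1, against 17 for the 124-base version. In ARFGAP3, the close relative of ARFGAP2, an exon of 132 bases (chr22:43206819-43206950, minus strand) was included at 83.2%, 81.4% and 77.6% in set 2, against 73.0%, 80.5% and 70.5% in set 1. The sets overlapped there.

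For ARFGAP1, the zinc finger exon was included at 97.2%, 98.1% and 97.0% in set 2, against 97.0%, 94.7% and 94.9% in set 1. The sets overlapped by a single pair of libraries, and the levels were all above those of RASL-seq. The intermediate ARFGAP1 event was the following exon of 172 bases (chr20:61907832-61908003), paired with the exon before the zinc finger exon and with the exon starting at 61909469. It was included at 78.4%, 100% and 95.8% in set 2, against 78.7%, 100% and 63.1% in set 1, on only 22 to 53 counts per library. Its inclusion junctions are those that skip the zinc finger exon and an exon of 101 bases (chr20:61908557-61908657). In set 2 library 1 it had 29 inclusion counts, where these exons had 19 and 10 skipping counts. The event is thus no separate observation, and its inclusion reads need not all lack the zinc finger exon. Joined to the zinc finger exon, the 172-base exon was included at 99.4 to 100%, on 527 to 806 counts per library. The 239-base exon was nearly absent here too, with 0%, 0.105% and 0% in set 2, against 0%, 0.349% and 0% in set 1, and an exon of 87 bases (chr20:61910572-61910658) was used in 0.223%, 0.331% and 0.169% in set 2, against 0.943%, 0.640% and 0.622% in set 1.

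The ARFIP1 exon had the widest gap between the sets among the 16 intermediate events. Inclusion was 12.8%, 13.8% and 13.3% in set 2, against 56.8%, 62.0% and 57.5% in set 1, from 183 to 377 counts per library. The libraries of each set lay close together and far from the other set. RASL-seq also separated its groups at this exon, but all of its values, 0 to 3.81%, were below the lowest RNA-seq value. ASAP2 showed the same gap between assays without a separation of the sets: its 135-base exon was included at 8.60%, 15.5% and 9.80% in set 2, against 21.2%, 14.4% and 15.2% in set 1, where RASL-seq gave 0 to 1.43%. RASL-seq reads inclusion from the upstream junction alone, with no length correction, and the part of these features in the gap was not tested.

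**Figure D3:**
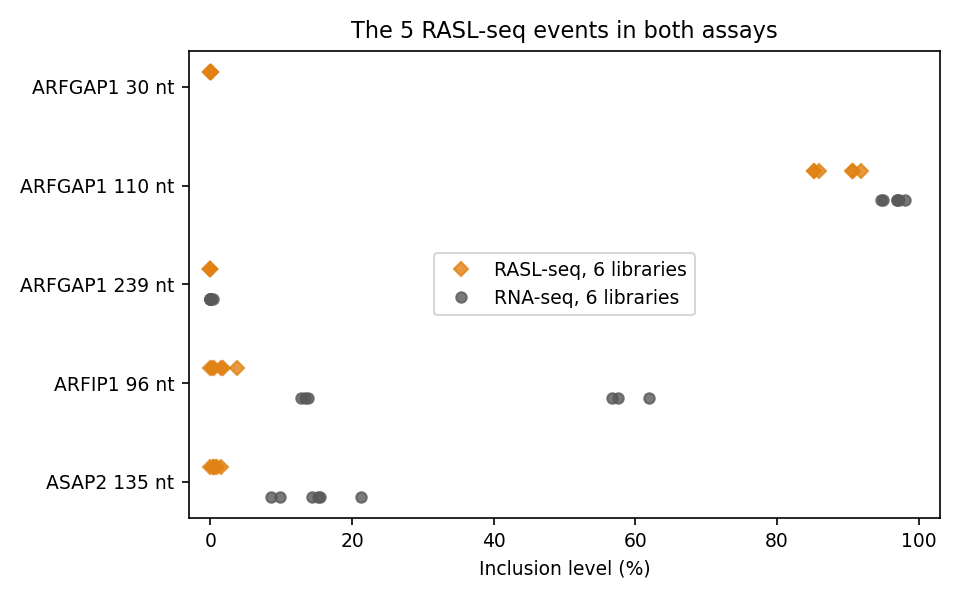
Inclusion level (%, horizontal axis) of the 5 RASL-seq events in the 6 libraries of each assay, without regard to line or set. Diamonds are RASL-seq libraries and circles are RNA-seq libraries; the ARFGAP1 30-base event has no RNA-seq points because that event was not matched in the RNA-seq table, and RASL-seq lies lower for the ARFGAP1 110-base, ARFIP1 and ASAP2 exons.

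ASAP1, a GAP with membrane-bending and SH3 domains that localises to focal adhesions and invadopodia, had 4 intermediate events on chromosome 8. An exon of 171 bases (chr8:131104219-131104389, minus strand) was included at 95.4%, 91.8% and 92.8% in set 2, against 94.8%, 89.7% and 91.9% in set 1, with overlap at 2046 to 2857 counts per library. An exon of 127 bases (chr8:131370263-131370389) was included at 93.6%, 90.3% and 92.7% in set 2, against 96.4%, 94.1% and 96.4% in set 1. That is the ASAP1 event in which the sets did not overlap, by a margin under 1 percentage point. An exon of 102 bases near the start of the gene (chr8:131373916-131374017), coding in part, was more variable between libraries of a set. Joined to the 127-base exon it was included at 36.8%, 30.8% and 37.9% in set 2, against 35.3%, 21.3% and 35.7% in set 1. In the event that pairs it with the exon beyond, it was included at 77.9%, 58.8% and 72.4% in set 2, against 84.2%, 60.0% and 80.9% in set 1. This last event has the same skipping counts as the 127-base event, so they repeat each other in part. It also shares the junction to the exon starting at 131414131 with the event before it. No annotated transcript has both of its junctions, so joining to the exon beyond was not shown. Library 2 was the lowest of its set in all 4 intermediate ASAP1 events. With the 102-base exon as its neighbour, the 127-base exon was included at 99.6 to 100%, on 447 to 1006 counts per library, and the sets overlapped.

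GIT1 and GIT2 are ARF6 GAPs that also bind PIX exchange factors and paxillin. Their intermediate exons did not separate the sets. The 27-base exon of GIT1 was included at 11.7%, 7.96% and 4.72% in set 2, against 11.4%, 10.3% and 9.07% in set 1. In GIT2 on chromosome 12, an exon of 90 bases (chr12:110383065-110383154, minus strand) was included at 90.7%, 91.7% and 95.1% in set 2, against 93.1%, 91.8% and 92.1% in set 1. A second GIT2 exon, of 150 bases (chr12:110388972-110389121), was included at 82.7%, 76.3% and 84.1% in set 2, against 80.7%, 80.5% and 82.2% in set 1. ACAP2, an ARF6 GAP of recycling endosomes, had 12 events above 95% and 4 below 5%. Among those below 5%, a coding exon of 105 bases (chr3:195015925-195016029) was included at 1.09%, 0.758% and 0.813% in set 2, against 0% in all 3 libraries of set 1, which held 133 to 161 counts each. The set 2 levels rest on 6, 4 and 3 inclusion counts beside 271, 262 and 183 skipping counts, so this difference rests on very few counts.

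**Figure D4:**
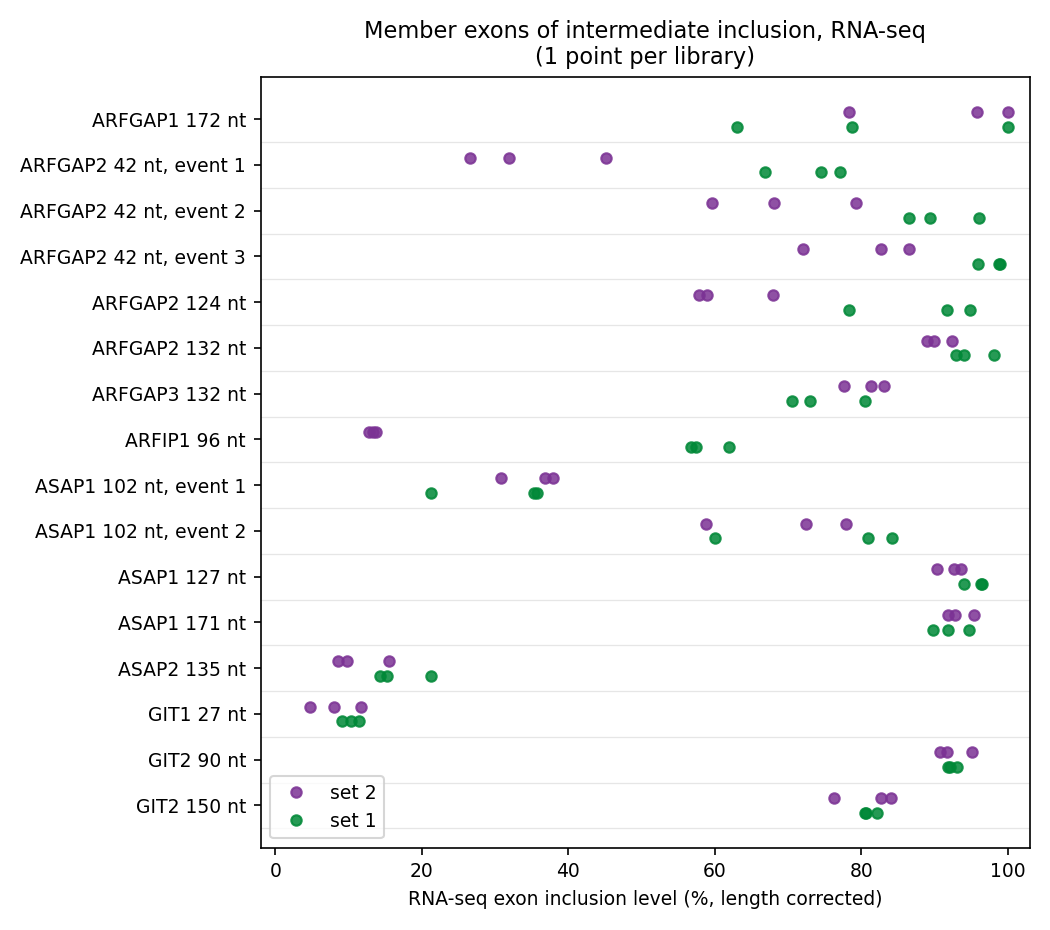
RNA-seq inclusion level (%, horizontal axis, length corrected) of the 16 intermediate events, 1 point per library, with set 2 above set 1 in each line. ARFGAP2 events 1, 2 and 3 of the 42-base exon pair it with the exons starting at 47194977, 47197402 and 47196566. ASAP1 event 1 of the 102-base exon joins it to the 127-base exon. The sets stand apart in the 5 ARFGAP2 events, ARFIP1 and the ASAP1 127-base exon.

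RNA-seq totals per gene, summed over all its events and given as CPM of the table total, did not overlap between the sets in 4 of the 9 genes, where 49.97% of all 11611 named genes did not. Such totals count a read in several events, so they are compared within a gene and not between genes. ARFGAP1 had 135, 133 and 129 CPM in set 2, against 92.3, 81.2 and 84.8 in set 1. GIT2 had 105, 98.2 and 78.8 CPM in set 2, against 53.4, 40.1 and 53.7 in set 1. Both were higher in every library of set 2.

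ACAP2 had 59.8, 58.4 and 33.1 CPM in set 2, against 28.4, 20.5 and 28.8 in set 1, again with all of set 2 above. ARFGAP2 went the other way, with 139, 149 and 132 CPM in set 2, against 186, 199 and 209 in set 1. ARFGAP3, ARFIP1, ASAP1, ASAP2 and GIT1 overlapped. ARFIP1, whose RASL-seq totals differed between the lines, had 17.7, 18.5 and 13.3 CPM in set 2, against 13.4, 14.3 and 15.1 in set 1. With the single event of most counts in place of the sum, these 4 genes were again without overlap and ASAP2 joined them.

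**Figure D5:**
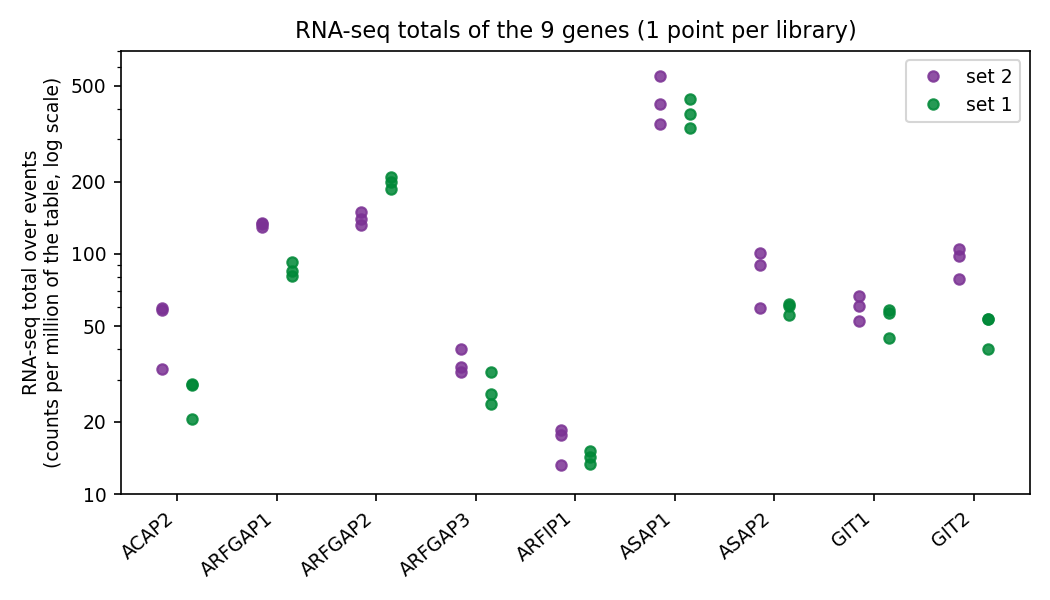
RNA-seq totals of the 9 genes (CPM of the table total, logarithmic vertical axis), 1 point per library, with set 2 left of set 1. The sets do not overlap for ACAP2, ARFGAP1 and GIT2, where set 2 is higher, and for ARFGAP2, where set 2 is lower; heights of different genes are not comparable because their numbers of events differ.

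The rest of the Arf pathway was taken as a list of 57 other genes, namely the Arf GTPases, their exchange factors, the other GAPs, effectors, coatomer subunits and partners of GIT and ASAP proteins. RASL-seq held events of 9 of them. Inclusion could be tested for 4 events in 4 genes, and the quasi-binomial test called 0, with 0 at an unadjusted p under 0.05 and 0 called by limma on the log2 ratio, where 5.69% of all tested events were called. Of 7 totals tested by limma-voom, 2 were higher in GS689 and 0 lower, with a median log2 change of 0.19, where 29.8% of all genes tested were called and 16.4% were called higher. PAK3, a kinase activated by Rac and Cdc42, averaged 43.0 ± 6.29 CPM in GS689 and 6.84 ± 2.18 CPM in PC3E (SD, n = 3 each), a log2 change of 2.57 (SE 0.386). AGFG1, an Arf GAP-related protein, averaged 313 ± 27.3 CPM in GS689 and 217 ± 48.6 CPM in PC3E (SD, n = 3 each), a log2 change of 0.55 (SE 0.181), and its call held in 4 of 11 alternatives. In RNA-seq 52 of the 57 genes had events, and the sets did not overlap in 38 of their 84 intermediate events, where 22.8% of all intermediate events were without overlap. PTK2, PXN and GGA1 held 7, 6 and 5 of the 38, and PTK2 alone held 14 of the 84. Events of a gene can share exons or junction reads, so these events are not separate observations.

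The RASL-seq events closest to the ARFGAP1 zinc finger exon over the 6 libraries were sought among 1065 events of other named genes by the root mean square difference of inclusion. A 54-base exon assigned to SMN2 came first at 0.921 percentage points, with means of 90.6% in GS689 and 85.4% in PC3E. SMN2 has a near-identical copy, SMN1, so that assignment is uncertain. A 171-base exon of SPINT2, a serine protease inhibitor, followed at 2.02 percentage points (92.1% in GS689, 83.9% in PC3E), and a 38-base exon of RNF121 at 2.32 percentage points (90.04% in GS689, 88.0% in PC3E).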

How the data were processed

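The deposited data are 1 table per assay, holding pairs of inclusion and skipping counts per exon event. Trizol RNA was made into libraries with a stranded TruSeq kit, per the labels' protocols. Reads were processed on hg19 with STAR 2.5.2a and kallisto 0.43.0, tools whose roles are not stated, per the submitters' processing notes. The deposited RNA-seq counts and effective lengths belong to 2 numbered sets with no line named, per the file headers. Each deposited RASL-seq cell holds 2 counts; empty cells were read as 0. The first count was taken as inclusion, since its share correlated with RNA-seq inclusion (r = 0.873 across 1611 events, which are not independent replicates). It is that of the upstream junction: in 51 of 51 event pairs sharing one, counts were identical, against 0 of 41 for the downstream junction. Columns of per-sample values left unused numbered 0.

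Genes were assigned where strand, exon length and both intron lengths matched 1 gene of GENCODE release 29 (95.6% of RASL-seq and 95.1% of RNA-seq events); no coordinates were converted. Inclusion was tested over all RASL-seq events with a quasi-binomial model and an F test, with dispersions moderated by limma 3.58.1 in R 4.3.3; events needed a mean of 10 counts per library, 1 in each and 10 of the rarer form. Totals, scaled by trimmed means of log ratios, were tested with limma-voom (10 counts in 3 libraries, 15 in all). Both were tested on simulated data. SDs are over 3 libraries. The text names all 9 genes, all their RASL-seq events, their intermediate RNA-seq events, called genes of the Arf list and the 3 events most like a called one; ARFGAP1 and ACAP2 exons of low inclusion, and the markers shown, were picked after their values were seen. Members, lists and tests were chosen with earlier results of these data known. Replicate numbers are shared between the lines, but the labels give no shared source for them.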

Additional observations from a re-analysis of the deposited data

How the results depend on the processing

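Over all events, RASL-seq inclusion calls numbered 64, 28 with limma on the log2 ratio (pseudocount 0.5), 4 without the count filter and 44 to 81 with 1 library left out. Among the 9 genes the 1 call became 0 with limma on the log2 ratio at pseudocounts of 0.5 and 5, without the filter and with a minimum of 10 percentage points, 2 with no minimum difference, and 0 to 1 with 1 library left out. Calls on totals numbered 393, 241 from skipping counts alone, 165 with a 2-fold minimum and 260 to 441 with 1 library left out, the lowest without GS689 replicate 1; among the 9 genes the 2 calls became 1, 0 and 1 to 2 under the same changes. The ASAP2 log2 total change of 0.10 lay between -0.0513 and 0.247 with 1 library left out and was below 0 without GS689 replicate 2. The 16 intermediate RNA-seq events became 10 with limits of 10% and 90%, and without length correction the median inclusion of 8 of the 16 moved by more than the spread between libraries. The cause of these changes was not tested, beyond the narrower limits and minimums themselves.

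In totals, the deviations of same-numbered libraries from their line means correlated at 0.269, 0.172 and -0.0137 for replicates 1, 2 and 3. Libraries of unlike number correlated at -0.273 to 0.0987. In inclusion the same-numbered values were 0.0371, 0.00378 and 0.034, against -0.101 to 0.0599 for unlike numbers. Whether the numbers pair the libraries was thus not settled, and the main tests leave them unpaired. With the replicate block, calls numbered 88 for inclusion and 465 for totals, and 1 and 2 among the 9 genes. The ARFGAP1 110-base and ARFIP1 inclusion differences kept their direction in every alternative run for them, whereas the ASAP2 difference of 0.0574 percentage points became -0.0918 without GS689 replicate 2, -0.236 without PC3E replicate 1 and -0.0692 without PC3E replicate 3. Depth limits the exons with few inclusion counts and the RNA-seq events of 21 to 53 counts per library.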
